A study of Homo sapiens with 2 samples.

Results

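The TRIM genes of 2 melanoma cell lines were examined on Affymetrix Human Genome U133 Plus 2.0 arrays, which measure RNA through sets of short probes. The genes were those whose single platform symbol was TRIM followed by a digit, or was PML or MEFV, the family's members known by other names. The rule gave 61 of the 19775 genes with a single symbol, covered by 145 of the 54675 probe sets. Of the 61, 57 were annotated as protein coding. The other 4 were the pseudogenes TRIM16L and TRIM64EP and the antisense RNAs TRIM52-AS1 and TRIM67-AS1, which encode no ligase.

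IGR39 was grown from a primary, achromic cutaneous melanoma and IGR37 from a lymph node metastasis, and each line was measured on 1 array. Both were kept in DMEM with 10% serum, and no treatment was given in the labels. The question put by the series is which genes separate the primary from the metastatic line. Values are log2 levels made with RMA, so a difference of 1 is 2-fold, and every difference below is IGR37 minus IGR39. With 1 array per line no test was possible, and no difference below has a replicate check.

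TRIM proteins share a RING finger, which binds a ubiquitin-charged E2 enzyme, 1 or more B-boxes and a coiled coil through which they pair. The C-terminal domain differs between classes and sets what each protein binds. Some classes act in antiviral signalling, where interferon raises several of the genes, others in transcription and chromatin, on microtubules or in muscle protein turnover. A few members, such as TRIM14, TRIM16, TRIM44 and MEFV, lack the RING finger.

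RefSeq promoters of the build GRCh38.p14, from 250 bases before to 50 after a transcript start, were held for 46 of the 61 members, some with several starts. They were searched on both strands for TCATGTG (the M-box, bound by MITF), CACGTG (an E-box), GAAA followed by any 2 bases and GAAA (the core of an interferon response element) and TTCNNNGAA (a STAT site). The promoters of 4 members that the results below turn on are shown 5′ to 3′ in lower case, with every match in capitals. In TRIM63 the capitals are an M-box, in TRIM14 and TRIM21 the interferon core (overlapping copies in TRIM21), and in TRIM16 first a STAT site and then the interferon core.
TRIM63, chr1:26067581-26067880, minus strand: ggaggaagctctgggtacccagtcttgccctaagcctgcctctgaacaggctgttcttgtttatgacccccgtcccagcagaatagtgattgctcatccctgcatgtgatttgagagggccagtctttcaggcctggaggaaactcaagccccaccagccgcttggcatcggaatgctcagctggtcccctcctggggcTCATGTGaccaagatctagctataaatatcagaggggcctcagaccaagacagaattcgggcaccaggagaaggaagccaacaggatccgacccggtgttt
TRIM14, chr9:98119173-98119472, minus strand: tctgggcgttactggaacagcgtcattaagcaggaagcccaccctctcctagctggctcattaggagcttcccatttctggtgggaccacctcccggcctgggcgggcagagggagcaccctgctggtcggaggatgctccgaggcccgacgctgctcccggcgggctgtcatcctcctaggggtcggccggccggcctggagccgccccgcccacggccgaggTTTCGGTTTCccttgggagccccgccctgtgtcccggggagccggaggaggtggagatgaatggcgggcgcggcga
TRIM16, chr17:15682902-15683201, minus strand: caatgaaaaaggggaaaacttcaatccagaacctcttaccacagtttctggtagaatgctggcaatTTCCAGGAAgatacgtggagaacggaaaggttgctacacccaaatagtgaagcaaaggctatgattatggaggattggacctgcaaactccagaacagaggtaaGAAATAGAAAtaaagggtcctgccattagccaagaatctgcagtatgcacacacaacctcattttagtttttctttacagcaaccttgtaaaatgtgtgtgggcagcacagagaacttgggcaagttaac
TRIM21, chr11:4393653-4393952, minus strand: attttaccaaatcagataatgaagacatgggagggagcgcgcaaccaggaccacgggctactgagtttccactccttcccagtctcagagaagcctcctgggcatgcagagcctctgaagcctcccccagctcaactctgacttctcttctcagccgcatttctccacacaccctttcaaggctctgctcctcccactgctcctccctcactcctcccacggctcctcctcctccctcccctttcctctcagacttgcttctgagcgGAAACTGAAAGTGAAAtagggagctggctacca

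As to the arrays, hybridisation spike-ins differed by a median of 0.02 and the poly-A spike-ins, added before labelling, by 0.25. Between probe sets of 1 gene at or above log2 6, differences had a pooled SD of 0.40, used below as a yardstick of probe noise. It covers no spread between cultures. All 6 melanocyte markers stood between 8.38 and 12.83 in IGR37, while in IGR39 MITF alone, at 7.57, reached log2 6 and SOX10, MLANA, PMEL, TYR and S100B did not. The 6 measured markers of lymphocytes and macrophages stayed under log2 6 in both lines. Of 4 keratinocyte markers DSP alone reached it, at 6.07 in IGR37, and of 5 fibroblast and endothelial markers COL1A1 and LUM did, at 6.15 and 6.26 in IGR37. The 23 measured housekeeping genes, all at log2 6, had a median difference of 0.16. Of the 23, 3 were higher by 2-fold or more, against 11.4% of all genes at that level.

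Of the 61 members, 28 (45.9%) reached log2 6 in at least 1 line, against 43% of all genes. Of these 28, 2 were at least 2-fold higher in IGR37, where 11.4% of all 8501 genes at that level were, and 4 were lower by that much, against 9.50% of genes. The other 22 lay within 2-fold. Those at least 2-fold higher were TRIM63 and TRIM62, and those at least 2-fold lower were TRIM16, TRIM47, TRIM14 and TRIM7. The median difference of the 28 was -0.19 against 0.07 for all genes at that level, and 12 of 28 differences lay above 0, against 54.5% of genes. At any level, 3 of 61 members were at least 2-fold higher (5.80% of all genes) and 4 lower (4.85%), with a median of -0.12. With so few members, these shares lie near those of all genes, and TRIM63 had by far its largest difference.

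**Figure D1:**
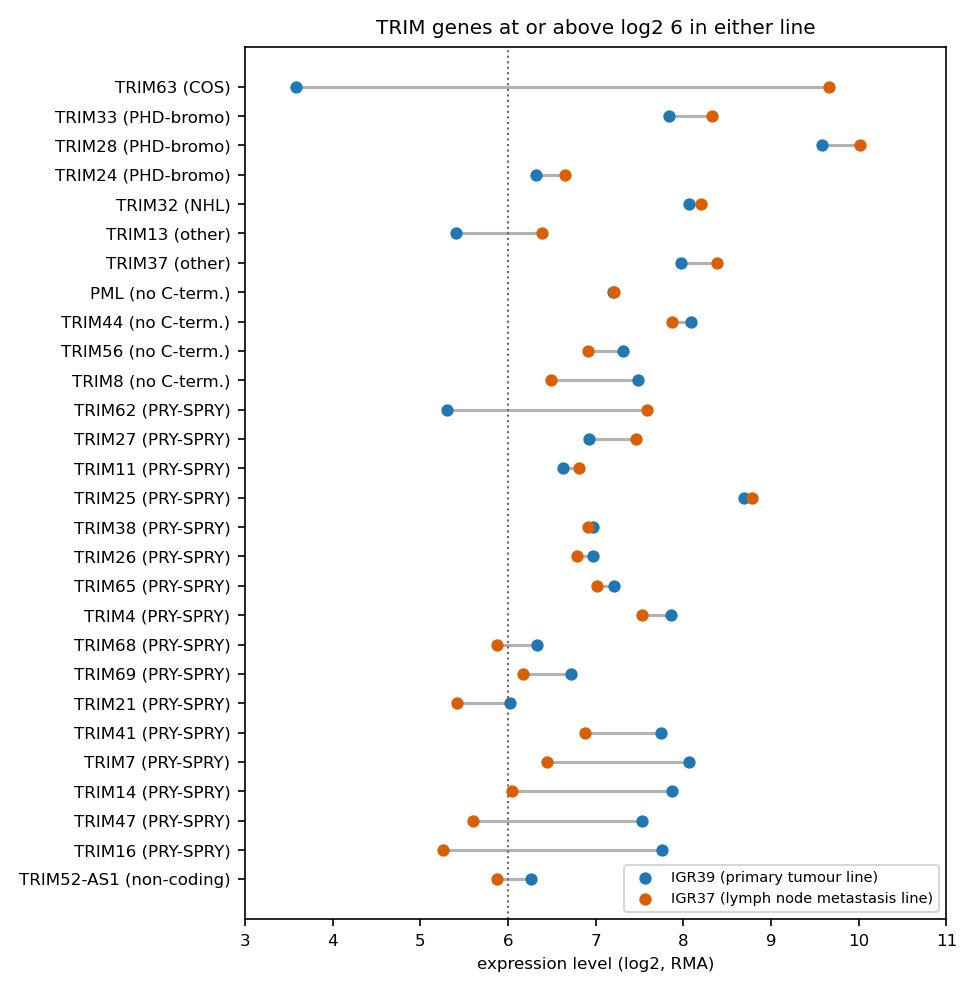
Log2 level of each TRIM gene at or above log2 6 in at least 1 line, with IGR39 in blue and IGR37 in orange, grouped by C-terminal domain class. Each point is 1 array, the dotted line marks log2 6, and TRIM63 spans from 3.58 to 9.66 while PML stands at 7.20 in both lines.

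**Figure D2:**
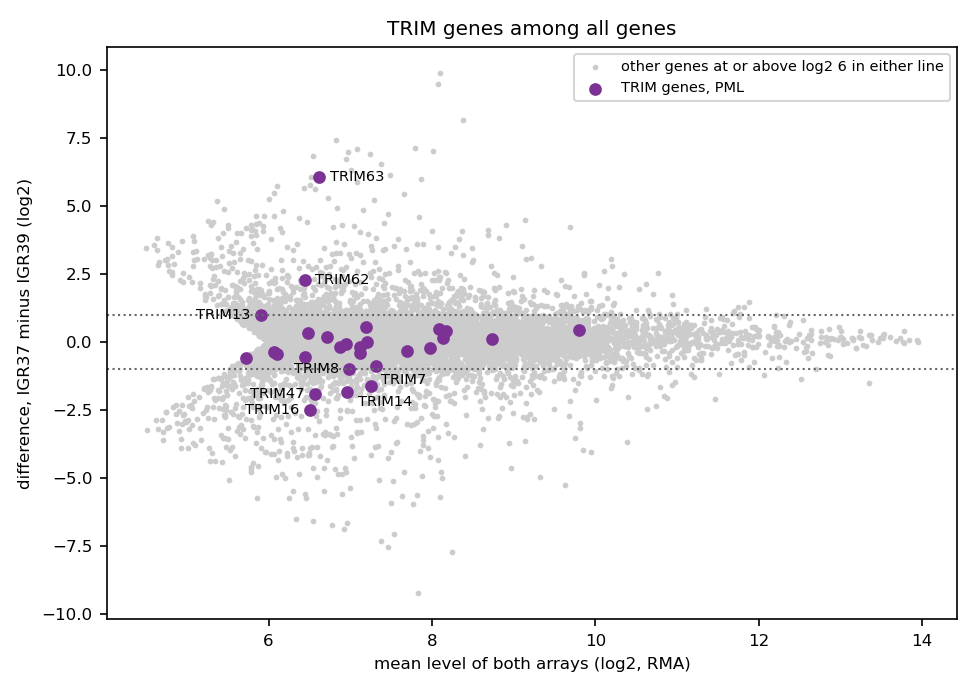
Difference between the lines against the mean log2 level for all genes at or above log2 6 in at least 1 line (grey) and the 28 TRIM genes and PML among them (purple). Dotted lines mark 2-fold. TRIM63 lies at 6.08 and most members lie between the dotted lines.

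TRIM63 encodes MuRF1, a ligase best known from skeletal muscle, where it marks sarcomere proteins for breakdown during atrophy. It stood at 3.58 in IGR39 against 9.66 in IGR37, a difference of 6.08, or 67.5-fold. This was the 15th highest difference among 8501 genes. Its IGR39 value lies low in the range of the array, so the fold depends on where RMA places dim probes. The value rests on 1 probe set. In RNA from a whole culture, fewer cells with a transcript and less of it per cell cannot be told apart.

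Skeletal muscle markers stayed low in both lines. All 9 skeletal muscle markers, among them MYOD1, MYOG, CKM and DES, stayed under log2 6, with highest values of 5.22 in IGR39 and 5.03 in IGR37. On the log2 scale the summed level of the 9 was 7.49 in IGR39, against 7.38 in IGR37. The other muscle-type TRIM genes of its class were also under log2 6, with TRIM54 at 4.31 and 4.15 and TRIM55 at 3.41 and 3.01. FBXO32, the other classic atrophy ligase, stood at 8.91 and 9.30, within 2-fold. In the list of atrophy genes and MiT factors, 6 of 10 measured genes reached log2 6. Of these 6, 2 exceeded 2-fold upwards (11.4% of all genes) and 1 downwards (9.50%). KLF15, a factor that activates atrophy genes in muscle, was higher, at 5.78 and 7.19, and TFE3 was lower, at 8.97 and 7.66. FOXO1, under log2 6, stood at 4.16 and 5.27, a difference of 1.11. FOXO3 stood at 7.22 and 6.29, a difference of -0.93.

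MITF, the master regulator of the melanocyte lineage, was the other higher gene of that list, at 7.57 in IGR39 and 11.81 in IGR37. TRIM63 RNA is used in pathology as a marker of kidney tumours with rearranged MiT factors, relatives of MITF. The M-box in the TRIM63 promoter began at position -51 relative to the transcript start. This sequence occurred in a promoter of 3.59% of 27305 genes and of 3 of the 46 members. The other members with it were TRIM38, at 6.97 and 6.91, and TRIM72, at 3.62 and 3.64, with differences of -0.06 and 0.02. Among measured genes with a promoter, 49.5% of the 465 with the M-box lay below 0, against 49.0% of the 14919 without. Their median differences were 0.001 and 0.006. The melanocyte markers moved with TRIM63, and their part in its difference was not tested.

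The 7 other members with a COS box, which binds microtubules, did not reach log2 6. Their highest level was 5.52, in TRIM67. Their differences ran from -0.40 in TRIM55 to 0.83 in TRIM9, a brain-enriched ligase at 3.51 and 4.33.

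Members with a COS box were counted apart, whatever domain they end in. The PRY-SPRY class, named for a domain that recognises proteins such as viral capsids, made up 28 of the 61, and 16 reached log2 6. Of these, 1 member exceeded 2-fold upwards and 4 downwards, 4 differences lay above 0 and 12 below, and their median was -0.39. Among all genes at that level 11.4% exceeded 2-fold upwards, 9.50% downwards and 54.5% lay above 0, with a median of 0.07. The 4 members of the family at least 2-fold lower belonged to this class, which holds 16 of the 28 members at log2 6.

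TRIM16, which has no RING finger and takes part in autophagy of damaged membranes, stood at 7.76 in IGR39 against 5.25 in IGR37, a difference of -2.50. TRIM47 stood at 7.53 and 5.61, a difference of -1.92. Each rests on 1 probe set and was under log2 6 in IGR37. TRIM16L, a near copy of TRIM16, stood at 5.13 and 5.47, and how far each probe set reads the other gene is not known from these values.

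TRIM7, a ligase that binds glycogenin, stood at 8.06 in IGR39 against 6.44 in IGR37, a difference of -1.62. Its other probe sets stayed under log2 6 and differed by -0.14 and -0.41. Their direction was the same and their size was smaller.

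TRIM14, a RING-less adaptor of mitochondrial antiviral signalling, did not give 1 answer. The probe set chosen by the rule stood at 7.88 in IGR39 against 6.05 in IGR37, a difference of -1.83. A second was at 6.33 and 5.46, also lower. Yet another, with nearly the same mean level, was at 6.67 and 7.07, a difference of 0.40 in the opposite direction. Among the probe sets at log2 6, TRIM14 was therefore lower by those ending in _s_at and not by the other.

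TRIM62, also known as DEAR1 and studied as a tumour suppressor in breast epithelium, was the only member of the class at least 2-fold higher. Its level was 5.30 in IGR39 against 7.59 in IGR37, a difference of 2.29. Another probe set was at 5.61 and 6.32, a difference of 0.70, and the remaining one, under log2 6, differed by -0.33. The direction was shared by the probe sets at log2 6, but the size was not.

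**Figure D3:**
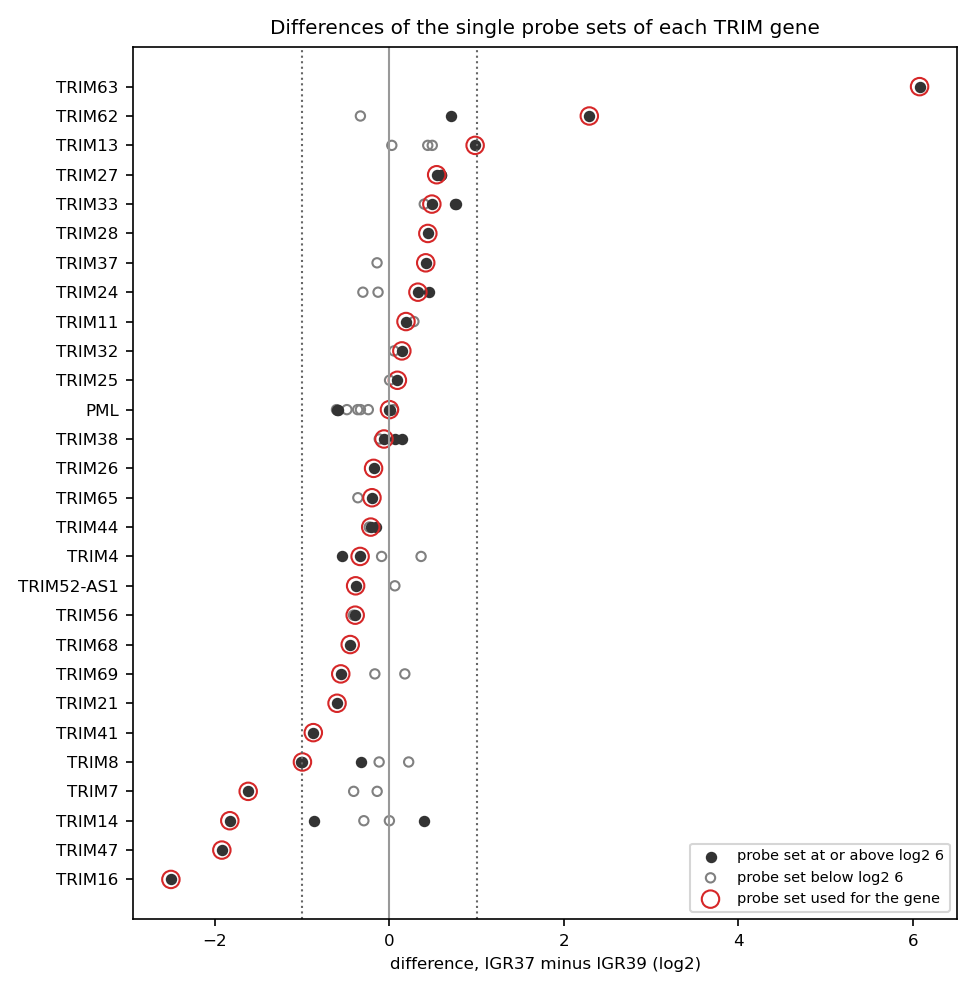
Difference between the lines for every probe set of the 28 members, with filled points at or above log2 6, open points below and a red ring around the probe set used for the gene. The points of TRIM14 run from -1.83 to 0.40 and those of TRIM62 from -0.33 to 2.29, while the 3 of TRIM27 lie between 0.54 and 0.60.

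Among the antiviral ligases of this class, TRIM25, which ubiquitinates the RNA sensor RIG-I, was almost level, at 8.69 and 8.78. TRIM21, a cytosolic antibody receptor, was at 6.02 in IGR39 against 5.42 in IGR37, a difference of -0.60. The retroviral restriction factor TRIM5 stood at 4.23 and 3.76 and the interferon-induced TRIM22 at 3.72 and 3.05, both under log2 6. None of these 4 differed by 2-fold. MEFV, the pyrin gene of familial Mediterranean fever, was at 4.22 in both lines.

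Other members of the class lay within 2-fold. TRIM41 stood at 7.75 and 6.88, a difference of -0.87, and TRIM4 at 7.86 and 7.53. The other TRIM4 probe set at log2 6 differed by -0.54. A dimmer one, under log2 6, differed the other way, at 4.21 and 4.57, and the dimmest differed by -0.09. TRIM27, a ligase and transcriptional repressor, stood at 6.92 and 7.46, and its 3 probe sets differed by 0.54 to 0.60.

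The chromatin members carry a PHD finger and a bromodomain, which read histone marks. TRIM28, or KAP1, the corepressor of zinc finger proteins that silences retroelements, stood at 9.58 in IGR39 and 10.02 in IGR37. TRIM33, which acts on SMAD4 in TGF-beta signalling, was at 7.84 and 8.32. TRIM24, a nuclear receptor cofactor and ligase of p53, was at 6.32 and 6.65. All 3 were higher in IGR37, by 0.44, 0.49 and 0.33, which is near or under the yardstick of 0.40. The 3 TRIM33 probe sets at log2 6 were all higher, by 0.49, 0.76 and 0.76. For TRIM24 the probe sets ending in _x_at were higher and the brighter of the others, under log2 6, was lower by 0.30. TRIM66 was at 4.76 and 4.77.

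Of 14 measured chromatin partners of these genes, all at log2 6, 1 was higher by 2-fold or more and 3 were lower. The shares of all genes at that level were 11.4% and 9.50%. SMAD4, the partner of TRIM33, stood at 5.71 and 7.12, and SMAD3 went the other way at 8.24 and 6.52. The heterochromatin protein gene CBX5 was at 8.57 and 7.18, while its relatives CBX1 and CBX3 differed by 0.02 and 0.44. MAGEA6, of a family whose proteins bind TRIM28, was at 9.26 and 8.22. The list's median was -0.01.

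Among members without a further C-terminal domain, TRIM8, a regulator of NF-kB and cytokine signalling, was at 7.48 in IGR39 but 6.49 in IGR37. Its difference of -0.997 lay just inside 2-fold. A second probe set differed by -1.02 and the last at log2 6 by -0.32. TRIM56, an antiviral ligase, was at 7.31 and 6.92, and TRIM44, which stabilises its targets and lacks a RING finger, at 8.08 and 7.87.

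PML, the scaffold of PML nuclear bodies, stood at 7.20 in both lines on its chosen probe set. Of its 10 probe sets, 4 reached log2 6, and their differences were 0.00, 0.01, -0.59 and -0.60. The lower of these 4 end in _x_at, the mark of probes that can match other transcripts. Those under log2 6 without that ending were lower as well, with differences from -0.24 to -0.49 except for 1 at 0.05, and the mean difference over all 10 was -0.32. Of 11 measured components of PML bodies, 9 reached log2 6. Of these, 8 lay within 2-fold, against 6720 of all 8501 genes at that level. The exception was the helicase gene BLM, at 7.05 and 8.73, while SP100 was at 7.79 and 7.19 and DAXX at 7.47 and 7.43.

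The remaining classes were mostly level or low. TRIM32, an NHL-repeat ligase mutated in a limb-girdle muscular dystrophy, was at 8.06 and 8.20. TRIM37, a centrosomal ligase mutated in mulibrey nanism, was at 7.97 and 8.38, and its other probe set, under log2 6, was at 3.88 and 3.74. TRIM13, anchored in the endoplasmic reticulum, was at 5.41 and 6.39, just inside 2-fold with a difference of 0.98. Its other probe sets, under log2 6, differed by 0.49, 0.03 and 0.44. TRIM2, a neuronal NHL ligase, was the third member at least 2-fold higher at any level. It stood at 4.22 and 5.99, just under log2 6, with a difference of 1.76 on this probe set and 1.69 and 0.76 on the next brightest.

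In all, 33 members stayed under log2 6 in both lines, from 2.91 in TRIM64EP to 5.99 in TRIM2 in the brighter line. Except for TRIM2, their differences ran from -0.92 in TRIM59 to 0.83 in TRIM9. At these levels RMA compresses differences, and a low value does not show that a transcript is absent. Of the 4 non-coding members, TRIM52-AS1 alone reached log2 6, at 6.26 and 5.88.

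Interferon signalling induces several TRIM genes. In the list of its genes 9 of 11 measured reached log2 6, and in 3 of these IGR37 was lower by 2-fold or more (9.50% of all genes) and in 1 higher (11.4%). The median was -0.09, with 4 differences above 0 and 5 below. The ubiquitin-like modifier gene ISG15 was at 9.89 in IGR39 but 4.81 in IGR37. The transcription factor IRF1 was at 8.36 and 5.03, and IRF9, a subunit of the interferon-activated complex ISGF3, was at 7.30 and 5.26. The receptor gene IFNGR1 was higher, at 6.92 and 8.58. The other 5, among them the kinase genes JAK1 and TYK2 with differences of -0.09 and 0.31, lay within 2-fold.

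RNA sensors that TRIM ligases act on were lower too. RIGI, the target of TRIM25, was at 7.06 and 4.72, and IFIH1, which encodes the sensor MDA5, at 7.53 and 4.77. STING1, the adaptor of DNA sensing, was at 7.82 and 5.87. ZC3HAV1, an antiviral zinc finger gene, was at 9.81 and 8.69. These were the 4 of 11 genes at log2 6 in that list with a 2-fold or larger decrease from IGR39 to IGR37, against 9.50% of all genes, and 0 had an increase of that size, against 11.4%. The other 7 lay within 2-fold, 4 of them above 0, such as MAP3K7, the kinase TAK1, at 6.36 and 7.02. The list's median at log2 6 was -0.49. TRIM25 itself differed by 0.09, against -2.34 for RIGI.

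All 8 measured E2 genes reached log2 6, with 2 at least 2-fold higher (11.4% of all genes) and 2 lower (9.50%). UBE2L6, the E2 of ISG15, was at 9.79 in IGR39 but 8.19 in IGR37, and UBE2E3 was at 10.42 and 9.21. UBE2E1 and UBE2E2 were higher, at 9.59 and 10.61 and at 4.16 and 6.15. UBE2N, which makes the K63-linked chains used in RIG-I signalling, was level at 10.00 and 10.27.

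**Figure D4:**
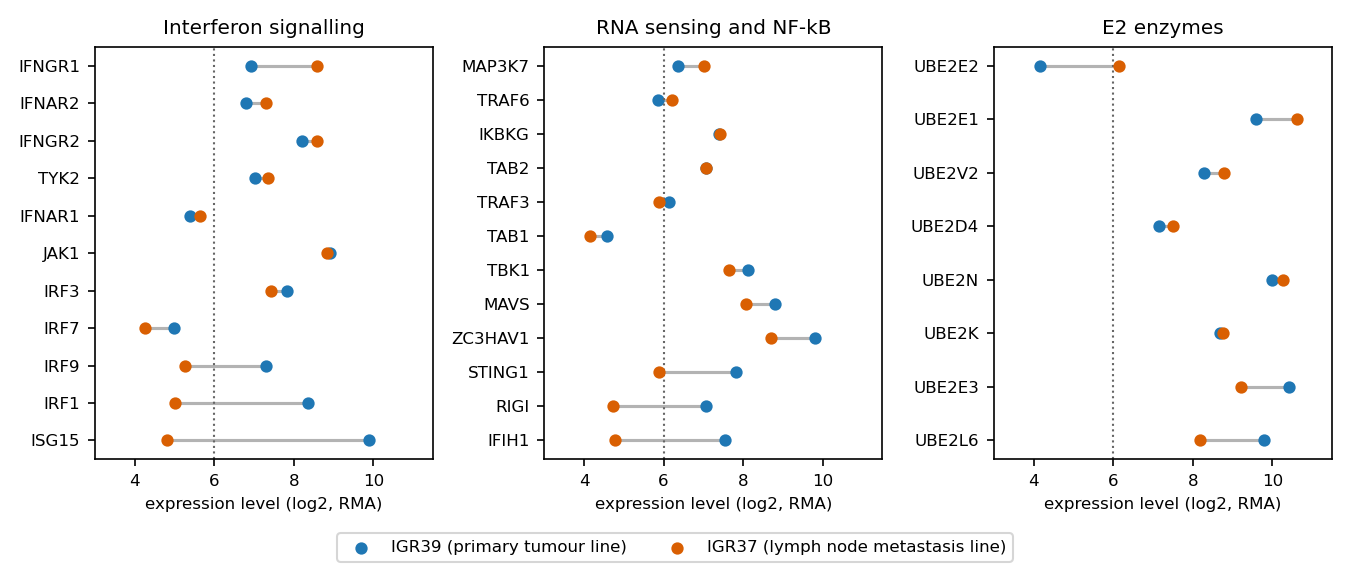
Log2 level in IGR39 (blue) and IGR37 (orange) for measured genes of interferon signalling, of RNA sensing and NF-kB signalling, and of E2 enzymes. Each point is 1 array and the dotted line marks log2 6. ISG15 spans from 9.89 to 4.81, while UBE2N stays at 10.00 and 10.27.

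The interferon element core was found in a promoter of 8 of the 46 members (17.4%), against 4.38% of 27305 genes. In TRIM14 it began at position -26 relative to the transcript start, and in TRIM21 overlapping copies began 18 and 24 bases into the transcript. The members with it were TRIM2, TRIM5, TRIM14, TRIM16, TRIM21, TRIM26, TRIM44 and TRIM69. Their differences ran from -2.50 in TRIM16 to 1.76 in TRIM2, and 7 of the 8 lay below 0, against 54.5% of the 613 genes with the core and 48.8% of the 14771 without it. Of the 7, TRIM14, TRIM5 and TRIM69 each had another probe set above 0, at 0.40, 0.17 and 0.18. Those of TRIM5 and TRIM69 were under log2 6. The differences of TRIM26 and TRIM44, -0.18 and -0.21, lay under the yardstick of 0.40. TRIM69 was at 6.72 and 6.17, and TRIM26 at 6.96 and 6.78.

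The median difference was -0.51 for these 8 and -0.07 for the 38 members whose promoters lacked the core, of which 22 lay below 0. Of the 28 members at log2 6, this split covered 6 with the core and 14 without. The rest, PML, TRIM4, TRIM8, TRIM11, TRIM13, TRIM24, TRIM27 and TRIM28, had no promoter to search. Of these, TRIM4 and TRIM8 lay below 0 and the others above 0, PML by only 0.0009. Interferon-induced TRIM22, under log2 6, had none either. Across all genes with a promoter and a value, the medians were -0.05 for genes with the core and 0.01 for those without. These are descriptions of a short sequence match and of 1 array per line. The E-box was found in 4 of the 46 members (8.70%, against 8.77% of all genes) and the STAT site in 7 (15.2%, against 9.38%). Of the 4, 2 lay above 0 and 2 below. Of the 7, 5 lay below 0, and the median of the 7 was -0.24. TRIM2 and TRIM16 held both the STAT site and the interferon core. Among all genes, 48.6% of the 1380 with the STAT site lay below 0, against 49.1% of the 14004 without it. The part of the interferon genes in the differences of the TRIM genes was not tested.

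**Figure D5:**
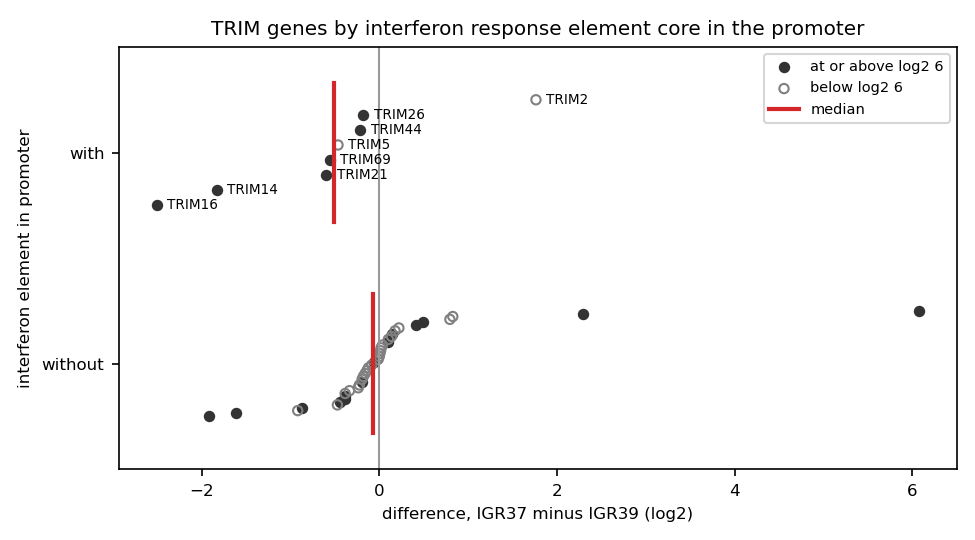
Difference between the lines for the 46 members with a promoter, split by whether the promoter holds the interferon element core. Filled points reached log2 6 in at least 1 line, and red bars are the medians of -0.51 with the core and -0.07 without it.

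Many TRIM genes lie side by side in the genome, and neighbouring members were compared where at most 5 protein-coding genes separated them. On chromosome 1, the adjacent TRIM11 and TRIM17 had differences of 0.19 and 0.03, both above 0, with TRIM17 under log2 6. On chromosome 5, TRIM7, TRIM41 and TRIM52 had differences of -1.62, -0.87 and -0.39, all below 0. On chromosome 11, TRIM21 and TRIM68 differed by -0.60 and -0.45, and the run of TRIM5, TRIM6 and TRIM22 by -0.47, -0.23 and -0.68. TRIM52 and the whole of that run were under log2 6 in both lines, and another TRIM5 probe set differed by 0.17. Differences on chromosome 6 were small, from -0.18 to 0.22 over TRIM31, TRIM40, TRIM10, TRIM15 and TRIM26. All of these but TRIM26 were under log2 6 in both lines, where RMA compresses differences. On chromosome 17 the adjacent TRIM47 and TRIM65 differed by -1.92 and -0.20, so adjoining members did not always differ alike.

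Of 11 relatives of the family outside the rule, 3 reached log2 6. All 3 lay within 2-fold, as did 6720 of all 8501 genes at that level. MID1, the microtubule-bound ligase of Opitz syndrome, was at 8.89 in IGR39 but 7.93 in IGR37. RNF135, which activates RIG-I, was at 7.06 and 7.69. In the list of pyrin inflammasome genes, 4 of 8 reached log2 6. Of these CASP1, at 6.72 and 8.77, and the adaptor gene PYCARD, at 8.48 and 9.57, were at least 2-fold higher, while pyrin's own gene MEFV stayed low. Among all genes at that level 11.4% were higher by that much.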

How the data were processed

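Total RNA of each line was hybridised to 1 array. The deposited values are log2 levels per probe set, to which the authors applied RMA (affy package), per the submitters' processing notes. Software versions and the set of arrays normalised jointly are not given. RMA equalises the arrays' distributions and compresses differences between low levels. The medians were 4.17 in IGR39 and 4.14 in IGR37.

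The platform annotation gave the gene of each probe set, and RefSeq (GRCh38.p14) its current symbol by gene identifier, which matched all 145 member probe sets. Probe sets naming no gene or more than 1 gave no value. Where a gene had several, the one whose mean of the 2 arrays was highest was used. Counts used genes whose brighter array reached log2 6, with a limit of 2-fold. A gene can pass that minimum through 1 line alone. No test or p-value was possible, since precision is limited by having 1 array a line.

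Members at least 2-fold apart, up to 4 more per domain class and 12 fixed genes were named. Other members, such as TRIM2, TRIM26 and TRIM69, were named after their values were seen. Members and lists were chosen with earlier results of these data known. The 8 planned and 2 added alternatives are given at the end. The calculation was tested on simulated data. Python 3.11.15, numpy 2.4.6, pandas 2.3.3, statsmodels 0.14.6 and matplotlib 3.10.9 were used.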

Additional observations from a re-analysis of the deposited data

Results flagged for a closer look

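Probe sets shared by several genes entered no gene value, and 13 of them name a TRIM gene. Of these, 2 reached log2 6 and so carry signal outside the comparison. The probe set shared by TRIM39, RPP21 and their read-through transcript TRIM39-RPP21, reached 8.21 in IGR37 and stood at 7.67 in IGR39. The probe set shared by TRIM73 and TRIM74, reached 6.22 in IGR39 and stood at 6.09 in IGR37. Which of the genes gave the signal cannot be told from these probes.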

How the results depend on the processing

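Averaging all probe sets of a gene left 17 members at log2 6, of which 1 was at least 2-fold higher and 2 were lower, and their median difference was 0.008. Under the other settings run, 2 or 3 members were at least 2-fold higher, 3 to 6 were lower, and the median ran from -0.35 to -0.12. When probe sets with the endings _x_at and _s_at were left out, TRIM14 turned from -1.83 to 0.40, since another of its probe sets was then read. Members within 2-fold changed sign there too: TRIM4 from -0.34 to 0.36, TRIM24 from 0.33 to -0.30 and TRIM37 from 0.42 to -0.14. TRIM62 was 0.89, TRIM13 0.49, TRIM8 -0.45, TRIM7 -0.72 and TRIM14 -0.52 with the mean over all probe sets. Of 93 values of 19 single genes, 83 moved by less than 0.40. Centring on 23 housekeeping genes took the median of all genes from 0.07 to -0.10 and gave 756 genes higher and 1039 lower in place of 973 and 808. It left 9 of 28 members above 0 and 6 at least 2-fold lower. Counting members by their mean level or as protein-coding genes alone, chosen after seeing the data, left 2 higher and 4 lower. No paired analysis was possible because each line has 1 array and no result comes from a test. Leaving out a replicate was not possible either. Low signal limits what can be said of the 33 members under log2 6.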
